A study of Mus musculus with 18 samples.

Results

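Wild-type neuromesodermal progenitors (NMPs) and untreated neural progenitors, both derived from mouse embryonic stem cells, were compared by RNA sequencing, with 3 libraries in each group. The 6 libraries were chosen by their labels from the 18 of the study, which follows the anterior homeobox gene Hoxb1 in both kinds of cell. The NMPs carry a wild-type genotype and were differentiated with no further treatment named. The neural progenitors received neither the induction of Hoxb1 nor SAG, an agonist of the hedgehog receptor component Smoothened. Both are labelled as strain C57BL/6. The other 12 libraries hold Hoxb1-null NMPs and neural progenitors with Hoxb1 expression (given with doxycycline), with SAG, or with both, again 3 libraries a group, and they are used here only for the levels they show. The sources used here do not say whether the 3 libraries of a group came from separate cultures, and do not name the parental line or clone of either group. The p-values therefore measure the spread between these libraries, which may be technical.

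An NMP is a cell of the caudal epiblast and tail bud that can give rise both to spinal cord and to paraxial mesoderm, and it is usually recognised by the joint presence of the mesodermal T-box factor T (Brachyury) and the neural factor Sox2. Wnt and FGF signals keep such cells in place, Cdx factors open the Hox clusters in them, and retinoic acid made by the neighbouring somites drives their exit. Neural progenitors made from embryonic stem cells are neuroepithelial cells that express SoxB1 factors, divide, and give rise to neurons through proneural basic helix-loop-helix factors, and without posteriorising signals they tend to take an anterior identity.

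The cell state differed together with the library set and the differentiation protocol. Library numbers in the labels ran from 8085 to 8087 for the wild-type NMPs and from 7390 to 7392 for the neural progenitors, so effects of cell state, library preparation and protocol cannot be told apart, and only large differences are described. A gene was therefore called when its adjusted p was under 0.05 in the quasi-likelihood test of edgeR and its fitted level differed at least 4-fold. The plain test alone passed 13803 of 15592 tested genes, or 88.5%, and is uninformative as a count. With the 4-fold condition 906 genes (5.81% of those tested) were higher in NMPs and 2167 (13.9%) were lower. Every count of list members below stands beside these shares, and no list was tested as a set. The median log2 fold change over all tested genes was -0.02 (NMP minus neural progenitor, as throughout). The largest adjusted p among called genes in the gene lists used below was 0.000725, for Fosb, and p-values are not repeated for each called gene. In bulk RNA, fewer cells of a type and less RNA per cell cannot be told apart.

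**Figure D1:**
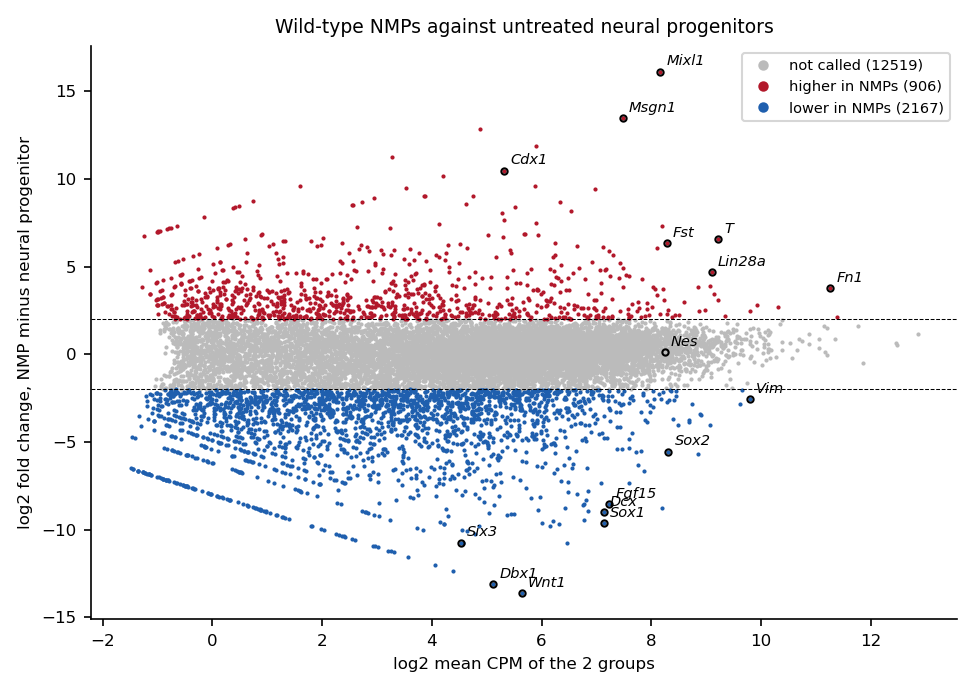
Each point is 1 of the 15592 tested genes, with the log2 of its mean CPM over both groups on the x axis and its fitted log2 fold change, NMP minus neural progenitor, on the y axis. Dashed lines mark 4-fold, 906 genes are red (higher in NMPs) and 2167 are blue (lower), and Nes lies near 0; the slanting rows at the lower edge are genes with 0 or few counts in 1 group, whose fitted values are no measured folds.

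Total counts were 16523276 to 21141058 per NMP library and 13589876 to 13976829 per neural progenitor library. The ribosomal protein genes took 2.59% to 2.62% of counts in NMPs and 1.56% to 1.60% in neural progenitors, and the 10 most counted genes took 4.74% to 4.80% and 3.01% to 3.06%. The first principal component of all 18 libraries (87.1% of the variance) set the 6 NMP libraries, at 110.7 to 117.6, apart from the 12 neural progenitor libraries, at -71.17 to -43.28. Between the 3 libraries of each group, 88.8% of all tested genes and all 3073 called genes did not overlap. Of all tested genes, 60.3% did not overlap between the 6 NMP and the 12 neural progenitor libraries, and of the 3073 called genes 2751 (89.5%) did not. Short transcripts were called higher more often than long ones. When genes were split into 3 parts by exon length, 8.56%, 5.89% and 2.98% of the shortest, middle and longest genes were called higher and 10.7%, 14% and 17% lower, and the part of transcript length in any result was not tested.

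The labels were checked against defining markers. T, the mesodermal determinant of the pair (ENSMUSG00000062327, mm10 chromosome 17, 8434423 to 8442496), stood at 1097, 1236 and 1200 CPM (the count scaled by the effective library size) in the 3 NMP libraries and at 12.7, 11.98 and 12.2 CPM in the 3 neural progenitor libraries. The NMP libraries were all far above the others, with a log2 fold change of 6.58 ± 0.052 SE. Sox2, the neural member of the pair (ENSMUSG00000074637, chromosome 3), stood at 14.4, 12.3 and 13.3 CPM in NMPs and at 591, 613 and 660.3 CPM in neural progenitors. Sox2 was thus lower in NMPs in every library (-5.55 ± 0.0504 SE). On a scale that also divides by exon length, in CPM per kilobase, T stood at 509 and Sox2 at 5.43 in NMPs, and at 5.31 and 253 in neural progenitors. Of the 8 NMP markers, 7 were called higher in NMPs, and the exception was Sox2, the neural member of the defining pair. Bulk RNA cannot show whether T and Sox2 were present in the same cells, so the name NMP is that of the labels. Of the 7 neural progenitor markers, 6 were called lower in NMPs, and the exception was Nes, the neural stem cell intermediate filament, at 316 ± 15 CPM in NMPs and 289.6 ± 19.6 CPM in neural progenitors. The sign of the Nes difference flipped without scaling for library composition, from 0.13 to -0.014.

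**Figure D2:**
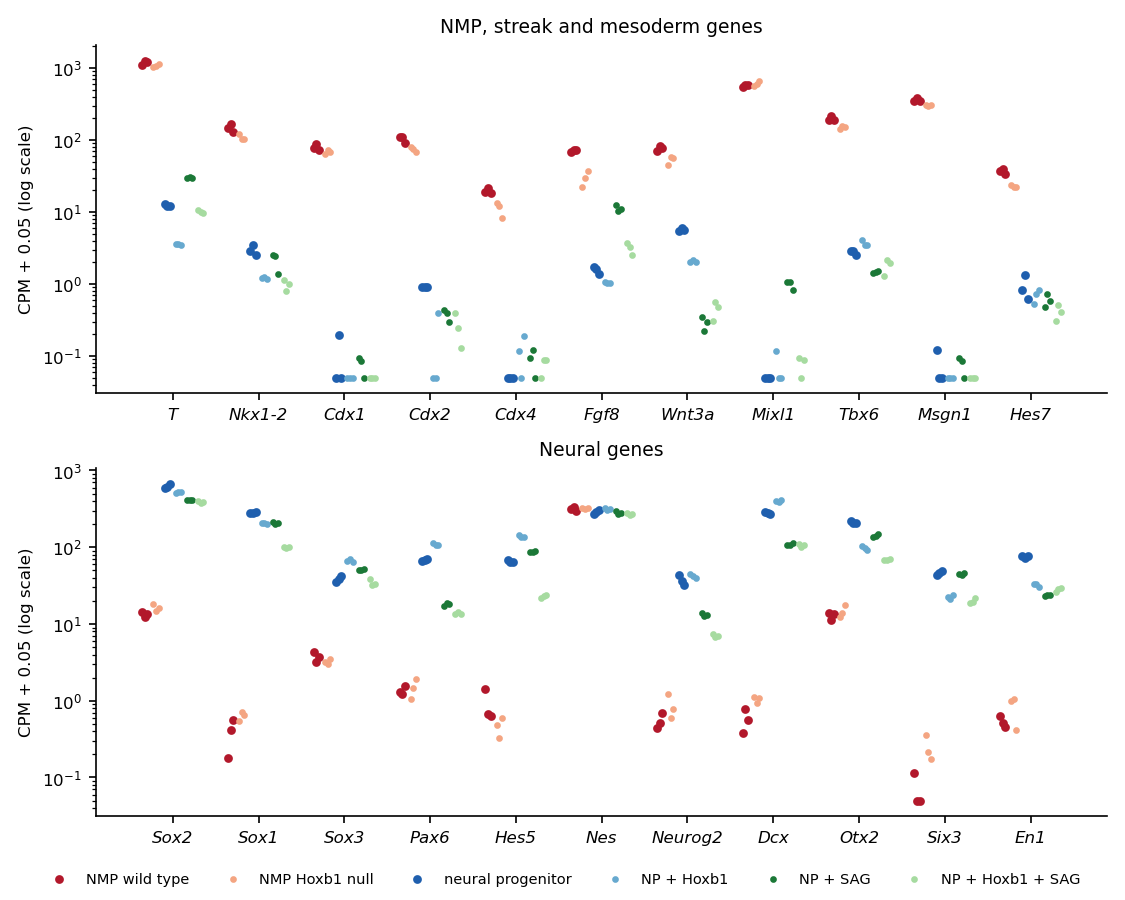
Levels of NMP, streak and mesoderm genes (upper panel) and of neural genes (lower panel) as CPM plus 0.05 on a log axis, with 1 point per library for all 6 groups of 3 libraries. The wild-type NMPs (dark red) stand above the untreated neural progenitors (dark blue) for T (1097, 1236 and 1200 against 12.7, 11.98 and 12.2 CPM) and below them for Sox2, while the Nes values of all groups lie together; the Hoxb1-null NMPs stand with the wild-type NMPs.

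The promoters of 4 genes that differ between the groups are shown because the factors and pathways that bind such letters are themselves described here. Each is the 250 bases before the RefSeq transcript start on build GRCm38.p6, 5′ to 3′ on the strand of the gene, with the matched motif in capitals. For T (chr17:8434173-8434422, plus strand) the capitals mark TTTATNG, a motif for CDX factors. For Sp5 (chr2:70474673-70474922, plus strand), a zinc finger target of Wnt signals, they mark ATCAAAG, a motif for TCF/LEF factors, on the opposite strand. For Msgn1 (chr12:11208949-11209198, minus strand), the presomitic basic helix-loop-helix factor, they mark the same motif. For Hes5 (chr4:154960673-154960922, plus strand), the Notch target repressor of neural progenitors, they mark 2 matches to GTGGGAA, a motif for RBPJ, 1 on each strand.
T: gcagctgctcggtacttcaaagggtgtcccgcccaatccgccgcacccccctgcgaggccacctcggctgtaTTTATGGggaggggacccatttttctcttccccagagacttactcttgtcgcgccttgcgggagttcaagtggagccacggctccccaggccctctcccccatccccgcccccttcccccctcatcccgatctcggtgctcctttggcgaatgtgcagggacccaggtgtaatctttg
Sp5: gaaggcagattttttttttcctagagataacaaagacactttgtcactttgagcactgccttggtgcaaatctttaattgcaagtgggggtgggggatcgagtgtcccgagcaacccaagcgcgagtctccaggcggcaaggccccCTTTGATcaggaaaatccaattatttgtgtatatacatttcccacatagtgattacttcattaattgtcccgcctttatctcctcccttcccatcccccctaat
Msgn1: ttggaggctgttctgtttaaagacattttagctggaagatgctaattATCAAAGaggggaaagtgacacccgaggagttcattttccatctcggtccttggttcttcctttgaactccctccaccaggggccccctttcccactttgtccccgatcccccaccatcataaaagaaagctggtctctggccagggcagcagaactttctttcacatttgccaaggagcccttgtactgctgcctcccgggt
Hes5: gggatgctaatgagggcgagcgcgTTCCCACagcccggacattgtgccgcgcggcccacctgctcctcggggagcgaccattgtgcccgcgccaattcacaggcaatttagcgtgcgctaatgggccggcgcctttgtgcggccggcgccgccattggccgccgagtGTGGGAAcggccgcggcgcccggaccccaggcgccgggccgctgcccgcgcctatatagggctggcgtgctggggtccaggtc

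All motifs were searched on both strands from 250 bases before to 50 after the start. The first share of each motif counts promoters. All other shares count genes with a match in any of their promoters, among genes that have one (11195 of 15592 tested genes), so the first is not of the same unit. TTTATNG was found in 10.9% of all 32851 promoters, in 7.92% of tested genes, in 9.96% of genes called higher and in 9.11% of genes called lower. Of the NMP genes with a promoter it was found in 5 of 14 (T, Wnt5b, Sp8, Evx1 and Evx2), of which Sp8 was not called and Evx2 was called lower. Other lists had as many, with 4 of 9 T-box genes, 4 of 10 Wnt targets and 4 of 10 retinoid genes. In Hox groups 1 to 4 it was in 0 of 7, and in groups 5 to 9 in 1 of 6. ATCAAAG was found in 3.73% of all promoters, 2.97% of tested genes, 3.02% of genes called higher and 3.28% of genes called lower. Of the Wnt targets it was found in 1 of 10, which was Sp5. In the same order GTGGGAA was found in 6.38%, 7.56%, 9.07% and 8.39%, and TCACACC, a T-box motif, in 3.98%, 4.14%, 6.41% and 4.19%. TCACACC was in 0 of the 14 NMP genes. CANNTG, the E-box of basic helix-loop-helix factors, was in 72.3%, 67.4%, 75.1% and 72.2%. A CANNTG match can share bases with a TCACACC match, and both were then counted. A match is a description of the sequence only.

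NMP identity genes were high in NMPs. Of 18 tested genes of this list 14 were called higher and 3 lower, with a median log2 fold change of 5.49. The Cdx homeobox factors, caudal regulators of the Hox clusters, were high in NMPs and below 1 CPM in every neural progenitor library. Cdx2 stood at 108, 109 and 90.1 CPM in NMPs and at 0.857, 0.861 and 0.846 CPM in neural progenitors (6.89 ± 0.13 SE). Cdx1 stood at 76.8, 88.8 and 72.7 CPM in NMPs, with 2 counts over the 3 neural progenitor libraries, a ratio of 1680 with a 95% counting interval of 466 to 13900. Cdx4 stood at 18.98, 21.2 and 17.99 CPM in NMPs and had no count in neural progenitors, at least 273-fold higher against a floor of 3 counts over the group. These intervals and floors cover counting error only, since the reads carry no molecular identifiers. Nkx1-2, a homeobox gene of the caudal epiblast, stood at 149, 166 and 129.8 CPM in NMPs and 2.86, 3.37 and 2.47 CPM in neural progenitors. Evx1, a homeobox factor of the posterior streak, stood at 157, 165 and 161 and 0.286, 0.574 and 0.282 CPM, and its paralog Evx2 was lower in NMPs (-3.63), at 0.147 ± 0.165 and 1.76 ± 0.334 CPM. The 3 genes of the list that were lower in NMPs were Sox2, Evx2 and Epha5, an ephrin receptor that is also neuronal (2.48 ± 0.129 CPM in NMPs and 47.4 ± 5.52 in neural progenitors).

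Genes of the primitive streak and nascent mesoderm were also high, 8 of 14 called higher and 1 lower (median 4.36). Mixl1, a homeobox factor of the streak (chromosome 1), stood at 544, 583 and 586 CPM in NMPs and had no count in the 3 neural progenitor libraries, at least 8040-fold higher. Snai1, the repressor that drives the epithelial to mesenchymal transition, stood at 151, 151 and 147 CPM in NMPs against 1.71, 1.94 and 1.903 CPM. Mesp1, an early mesoderm basic helix-loop-helix factor, stood at 12.4, 12.6 and 11.99 CPM, with 3 counts in neural progenitors, a ratio of 173 (59 to 843). Nodal, a ligand that patterns the streak, and Tdgf1, its co-receptor, averaged 62.3 ± 2.82 and 347 ± 30.3 CPM in NMPs and 4.56 ± 0.366 and 11.2 ± 0.448 CPM in neural progenitors. Lefty2, a feedback inhibitor of Nodal, averaged 198 ± 13.8 and 6.43 ± 0.369 CPM. Fgf4, the only gene of this list called lower in NMPs, averaged 1.37 ± 0.388 and 15.9 ± 1.75 CPM. Eomes, another T-box factor of the streak, missed the 4-fold condition (1.99).

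Presomitic genes lay on both sides. Of 19 tested genes 7 were called higher and 4 lower (median 1.20). Msgn1, whose promoter is shown above, stood at 343, 381 and 349 CPM in NMPs and had 1 count in neural progenitors, a ratio of 15100 with a counting interval of 2710 to 597000. Tbx6, the T-box factor that turns NMP progeny to mesoderm, stood at 192, 212 and 189.7 CPM in NMPs and 2.86, 2.797 and 2.47 CPM in neural progenitors (6.19 ± 0.076 SE). Hes7, a repressor of the segmentation clock, averaged 36.7 ± 3.002 and 0.88 ± 0.373 CPM. All 3 genes were called higher. The 4 lower genes were Ripply1 (0.131 ± 0.0577 CPM in NMPs and 3.27 ± 0.3398 in neural progenitors), Uncx (2.25 ± 0.6099 and 31.8 ± 1.31), Meox2 (-3.90) and Pax3 (0.814 ± 0.199 and 36.5 ± 1.49), of which Pax3 is also a dorsal neural gene. Dll1, the Notch ligand of presomitic and neural cells, averaged 283 ± 16.8 and 118 ± 11.4 CPM and was below 4-fold. Meox1, a somite factor, was not tested and averaged 0.189 ± 0.07096 and 0.143 ± 0.124 CPM. The summed level of this list was 1451 to 1613 CPM in NMPs and 432.3 to 469.9 CPM in neural progenitors, and the part of such cells in the other results was not tested.

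Lateral and intermediate mesoderm genes were mixed, with 6 of 17 called higher and 5 lower. Gata4 and Gata6, zinc finger factors of lateral mesoderm and endoderm, averaged 38.7 ± 0.05401 and 25.1 ± 2.03 CPM in NMPs and 1.21 ± 0.433 and 0.594 ± 0.253 CPM in neural progenitors. Msx1, a BMP-responsive homeobox gene, averaged 23.5 ± 2.09 and 1.04 ± 0.0851 CPM. The 5 lower genes were Foxf2, Tbx2, Pax2, Pax8 and Prrx1, with Pax8 at 0.246 ± 0.141 CPM in NMPs and 7.92 ± 0.883 CPM in neural progenitors. Pax2 and Pax8 are also genes of the midbrain and isthmus and are counted among those below. Of 9 tested endoderm genes, 4 were higher (Gata4, Gata6, Hhex and Epcam) and 1 lower, the floor plate and endoderm factor Foxa1. Sox17, a defining endoderm factor, averaged 1.602 ± 0.188 and 0.807 ± 0.113 CPM and was below 4-fold. The endoderm list summed to 284.5 to 299.7 CPM in NMPs and 93.53 to 110.4 CPM in neural progenitors.

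The Hox clusters, which encode position along the body axis, were expressed in NMPs and low in untreated neural progenitors. Of 11 tested genes of paralog groups 1 to 4, 10 were called higher in NMPs and none lower (median 5.34), and of 13 in groups 5 to 9, 10 were higher and none lower (median 2.35). The summed level of groups 1 to 4 was 489.5 to 559.4 CPM in NMPs and 5.004 to 6.814 CPM in neural progenitors. Hoxb1 stood at 239, 271 and 248 CPM in NMPs and 0.357, 0.646 and 0.0705 CPM in neural progenitors (9.44 ± 0.13 SE). It averaged 15.1 CPM in the Hoxb1-null NMPs and 324 CPM in the neural progenitors given Hoxb1, so it does not separate all 6 NMP from all 12 neural progenitor libraries. Hoxb2 stood at 78.3, 82.6 and 72.7 and 0.714, 0.789 and 0.705 CPM. It too does not separate them, at 8.021, 8.63 and 6.391 CPM in Hoxb1-null NMPs and 70.83, 64.43 and 65.77 CPM in neural progenitors given Hoxb1. Of the 10 called genes of groups 1 to 4, 6 separated the NMP from the neural progenitor libraries, beside 89.5% of all called genes. Hoxa2 was the only gene of groups 1 to 4 below 4-fold, at 4.45 ± 0.356 and 1.71 ± 0.3905 CPM.

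The summed level of groups 5 to 9 was 55.82 to 69.3 CPM in NMPs and 6.957 to 8.599 CPM in neural progenitors. Hoxa5 stood at 12.5, 15.2 and 10.9 CPM in NMPs and 0.214, 0.0717 and 0.211 CPM in neural progenitors, and Hoxd9 at 18.3, 17.2 and 15.5 and 0.357, 0.215 and 0.352 CPM. Both were called higher. Of the 10 called genes of groups 5 to 9, only 4 separated the 6 NMP from the 12 neural progenitor libraries, beside 89.5% of all called genes. Hoxb8, Hoxc8, Hoxb9 and Hoxa9 averaged 1.62, 2.19, 7.96 and 0.945 CPM in NMPs and 0.308, 0.428, 2.84 and 0.426 CPM in neural progenitors, and of these Hoxb9 and Hoxa9 were below 4-fold. Only 2 of 12 genes of groups 10 to 13 had enough counts to be tested, and both were called higher. Hoxd13 averaged 4.4 ± 0.366 CPM in NMPs and had 3 counts in neural progenitors, and Hoxc13 averaged 2.98 ± 0.837 and 0.261 ± 0.0842 CPM. Genes of chromosome 11, which carries the Hoxb cluster, had a median log2 fold change of -0.39 (998 genes with at least 5 CPM, 35.2% of them above 0), against 0.01 over all 12039 such genes. Chromosome 8, which carries Sox1, had a median of -0.19 (657 genes). Other chromosomes were shifted the other way, such as 19 with a median of 0.211 (411 genes) and 5 with 0.155 (776 genes). Chromosome number was not measured.

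**Figure D3:**
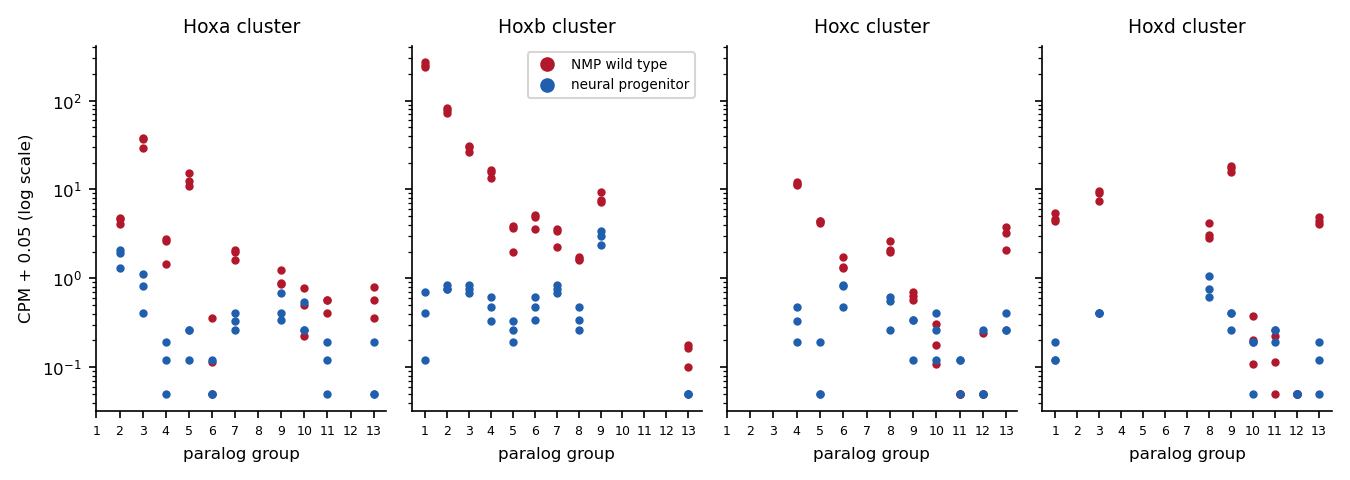
CPM plus 0.05 (log axis) of Hox genes against paralog group, in 1 panel per cluster, with 3 wild-type NMP libraries in red and 3 untreated neural progenitor libraries in blue. Most genes of groups 1 to 4 stand far apart, as Hoxb1 does with 239, 271 and 248 against 0.357, 0.646 and 0.0705 CPM, while the genes of groups 10 to 12 lie below 1 CPM in both.

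Neural progenitor genes were low in NMPs, 15 of 22 tested genes called lower and none higher (median -5.27). Sox1, the SoxB1 factor that marks committed neural cells (chromosome 8), stood at 0.13, 0.3596 and 0.519 CPM in NMPs and 281, 276 and 285 CPM in neural progenitors (-9.64 ± 0.089 SE). Pou3f2 and Pou3f3, POU factors of neural progenitors, averaged 0.187 ± 0.0645 and 0.467 ± 0.103 CPM in NMPs and 160.3 ± 6.29 and 229 ± 10.96 CPM in neural progenitors. Sox3, the other SoxB1 factor, averaged 3.66 ± 0.546 and 38.6 ± 3.42 CPM, a smaller difference of -3.41 ± 0.099 SE on the log2 scale. Pax6, a paired-box regulator of neural tube and eye, averaged 1.31 ± 0.1701 and 68.1 ± 2.602 CPM. Fabp7, a lipid binding protein of radial glia, stood at 17.1, 18.3 and 16.6 CPM in NMPs and 885, 864 and 958 CPM in neural progenitors. Vim, an intermediate filament gene, averaged 260.0 ± 7.85 and 1510.1 ± 37.7 CPM. The 7 genes of the list below 4-fold included Nes, Cdh2, which encodes N-cadherin (0.28), and Notch1 (1.13).

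Transcription factor families of the neural tube were lower in part or in whole. All 6 tested Pax genes were called lower, 9 of 17 tested Sox genes were lower and none higher, and 8 of 19 genes of the Iroquois, Zic and Meis/Pbx families were lower and none higher. The summed level of the Pax genes was 3.835 to 4.418 CPM in NMPs and 132.5 to 142.4 CPM in neural progenitors. Sox5 averaged 0.217 ± 0.09998 and 55.3 ± 3.52 CPM, and Sox21 1.03 ± 0.103 and 228 ± 6.05 CPM. Zic1 and Zic4, zinc finger factors of dorsal neural tissue, averaged 9.54 ± 1.12 and 0.698 ± 0.207 CPM in NMPs and 442 ± 10.7 and 222 ± 21.03 CPM in neural progenitors, whereas Zic2 (-0.50) was below 4-fold. Meis1, a homeobox cofactor of Hox proteins, averaged 3.39 ± 0.272 and 80.9 ± 1.76 CPM. Of 12 tested T-box genes, T, Tbx4 and Tbx6 were higher and Tbr1 and Tbx2 lower, and without neural progenitor replicate 1 the number higher was 5.

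The untreated neural progenitors carried genes of the anterior brain. Of 19 tested forebrain and eye field genes 16 were called lower in NMPs and 1 higher (median -6.42, and -6.40 with genes of no count set to their bound). Six3, a homeobox factor of forebrain and eye, stood at 0.065, 0 and 0 CPM in NMPs, 1 count in all, and at 43.97, 46.5 and 48.3 CPM in neural progenitors, a ratio of 2410 with a counting interval of 433 to 95400. Otx2, which marks forebrain and midbrain and also the early epiblast, stood at 13.7, 11.2 and 13.3 CPM in NMPs and 219, 204 and 206 CPM in neural progenitors, so it was detected in NMPs but lower. Lhx2, a LIM homeobox factor, averaged 1.703 ± 0.518 and 63.4 ± 2.21 CPM. Rax, the eye field gene, was not tested, at 0.0192 and 0.3801 CPM. The 1 higher gene was Lmo2, which is also a blood and endothelial regulator (141 ± 5.44 and 9.21 ± 0.329 CPM).

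Midbrain genes followed, with 11 of 16 lower and 3 higher. Wnt1, a ligand of the midbrain and dorsal neural tube (chromosome 15), had no count in the NMP libraries and stood at 98.8, 99.6 and 99.9 CPM in neural progenitors, at least 1730-fold lower in NMPs. En1, a homeobox factor of midbrain and isthmus, stood at 0.585, 0.462 and 0.404 CPM in NMPs and 77.5, 72.5 and 77.95 CPM in neural progenitors (-7.29 ± 0.12 SE). The higher genes included Fgf8 and Fgf17, which are also NMP genes. Of 13 hindbrain genes 5 were higher, among them Gbx2, Hoxb2, Hoxb1 and Fgf3, and 3 lower, among them Irx3 (median 1.52). Gbx2, a homeobox factor of anterior hindbrain and of epiblast, averaged 138 ± 4.36 and 4.72 ± 1.1 CPM. Egr2, which marks rhombomeres, was at 4.94 ± 0.906 and 1.71 ± 0.447 CPM and was below 4-fold.

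Genes of the dorsoventral axis of the neural tube were low in NMPs. Of 15 ventral genes 11 were lower and none higher, and of 14 dorsal and intermediate genes 9 were lower and 1 higher (Msx1). Dbx1, a homeobox factor of intermediate progenitors, had no count in NMPs and stood at 69.7, 70 and 69.2 CPM in neural progenitors, at least 1210-fold lower. Pax7, a dorsal paired-box factor, averaged 0.722 ± 0.333 and 12.6 ± 0.287 CPM. Olig2 and Nkx6-1, factors of motor neuron progenitors, averaged 4.69 ± 0.635 and 4.07 ± 0.601 CPM in NMPs and 35.4 ± 1.996 and 16.7 ± 2.002 CPM in neural progenitors. Nkx2-2, a factor of more ventral progenitors, averaged 0.0818 ± 0.0712 and 8.04 ± 1.66 CPM. Foxa2, a floor plate factor, was below 4-fold at 5.38 ± 0.4304 and 8.74 ± 0.796 CPM.

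Hedgehog signalling genes were in part lower in NMPs, 5 of 13 called lower and none higher (median -0.93), or 1 higher without neural progenitor replicate 1. Shh, the ligand, stood at 0.13, 0.514 and 0.288 CPM in NMPs and 38.8, 35.7 and 36.3 CPM in the neural progenitors, which had received no SAG. Gli1, the transcriptional effector and target, stood at 8.32, 7.35 and 7.96 and 142, 158 and 159 CPM (-4.28 ± 0.062 SE). Ptch1, the receptor and feedback target, averaged 64.4 ± 3.6 and 273 ± 24.9 CPM. Gli2 and Hhip, an effector and a decoy receptor, averaged 15.6 ± 0.663 and 0.164 ± 0.202 CPM in NMPs and 94.03 ± 9.83 and 28.7 ± 5.29 CPM in neural progenitors, while Smo, which encodes the target of SAG, differed by 0.09 and was not called.

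Genes of neuron formation were detected in the neural progenitor libraries and lower in NMPs. Of 10 tested proneural genes 8 were lower and none higher (median -6.16). Neurog2, a proneural basic helix-loop-helix factor, stood at 0.39, 0.462 and 0.634 CPM in NMPs and 43.6, 36.5 and 32.6 CPM in neural progenitors. Of 18 genes of postmitotic neurons 13 were lower and none higher (median -3.13). The 5 below 4-fold were Stmn2, Ina, Nefl, Nefm and Syp. Stmn2 and Ina averaged 102.4 and 87.6 CPM in NMPs and 127 and 138.7 CPM in neural progenitors, so some neuron genes were well detected in NMPs. Dcx, a microtubule protein of migrating neurons, stood at 0.325, 0.719 and 0.519 CPM in NMPs and 286, 281 and 272 CPM in neural progenitors (-9.004 ± 0.083 SE). Tubb3, a neuronal tubulin, averaged 32.5 ± 1.57 and 310.2 ± 20.05 CPM. The neuron list summed to 414.3 to 425.6 CPM in NMPs and 2352 to 2438 CPM in neural progenitors, and how much of the other neural differences such cells carry was not tested.

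Neural crest genes, markers of another derivative of the neural plate border, were lower in 6 of 13 and higher in 1 (Msx1). Tfap2b, an AP-2 factor, had 2 counts in NMPs and stood at 57.5, 57.3 and 50.7 CPM in neural progenitors, a ratio of 1440 with an interval of 398 to 11900. With SAG, Tfap2b stood at only 2.661, 1.923 and 2.439 CPM in neural progenitors. Ednrb, an endothelin receptor, averaged 0.157 ± 0.0482 and 143 ± 9.94 CPM, and Sox9 averaged 1.38 ± 0.245 and 149 ± 2.38 CPM. Sox10, the defining factor of migratory crest, averaged 1.38 ± 0.372 and 4.2 ± 0.635 CPM and was below 4-fold. The crest list summed to 99.1 to 103.7 CPM in NMPs and 446.8 to 463.6 CPM in neural progenitors. Sox9 is also in the neural progenitor list, and Pax3 and Msx1 are in the dorsal list, so the sum does not measure crest cells. Foxd3 and Snai2, other crest genes, averaged only 2.16 and 1.33 CPM in neural progenitors.

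Wnt ligands lay on both sides. Of 19 tested ligands 10 were called higher and 5 lower in NMPs (median 2.18). Wnt3a, the ligand of the tail bud, stood at 69.8, 83.4 and 77.4 CPM in NMPs and 5.35, 5.88 and 5.498 CPM in neural progenitors (3.79 ± 0.082 SE). Wnt8a, also of the caudal epiblast, averaged 21.9 ± 1.31 and 0.498 ± 0.189 CPM. Wnt6 stood at 126, 121 and 107 CPM in NMPs and 0.286, 0.0717 and 0.0705 CPM in neural progenitors. Wnt2 and Wnt10a each had 1 count in neural progenitors and averaged 23.01 ± 1.896 and 11.8 ± 0.0867 CPM in NMPs. The 5 lower ligands were Wnt1, Wnt7a, Wnt7b, Wnt8b and Wnt10b, and of these Wnt7b averaged 7.62 ± 1.52 and 113 ± 7.08 CPM and Wnt8b 0.657 ± 0.315 and 74.6 ± 7.12 CPM.

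Targets and feedback genes of the Wnt pathway were less one-sided, with 4 of 17 higher and 2 lower (median 0.52). Those shares, 23.5% and 11.8%, stand beside 5.81% and 13.9% of all tested genes. Lef1, a transcriptional effector, stood at 502, 506 and 479 CPM in NMPs and 35.8, 36.7 and 41.6 CPM in neural progenitors. Sp5, whose promoter is shown above, stood at 300.3, 297 and 288 and 4.78, 5.67 and 4.51 CPM (5.88 ± 0.059 SE), and Dkk1, a secreted inhibitor, averaged 85.3 ± 3.91 and 1.52 ± 0.241 CPM. Axin2, a feedback inhibitor widely used as a readout, averaged 400.4 ± 10.5 and 106 ± 6.38 CPM, just under 4-fold. The lower genes were both inhibitors, Apcdd1 (41.8 ± 2.81 and 674 ± 36.3 CPM) and Wif1 (0.255 ± 0.181 and 5.05 ± 0.638 CPM).

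**Figure D4:**
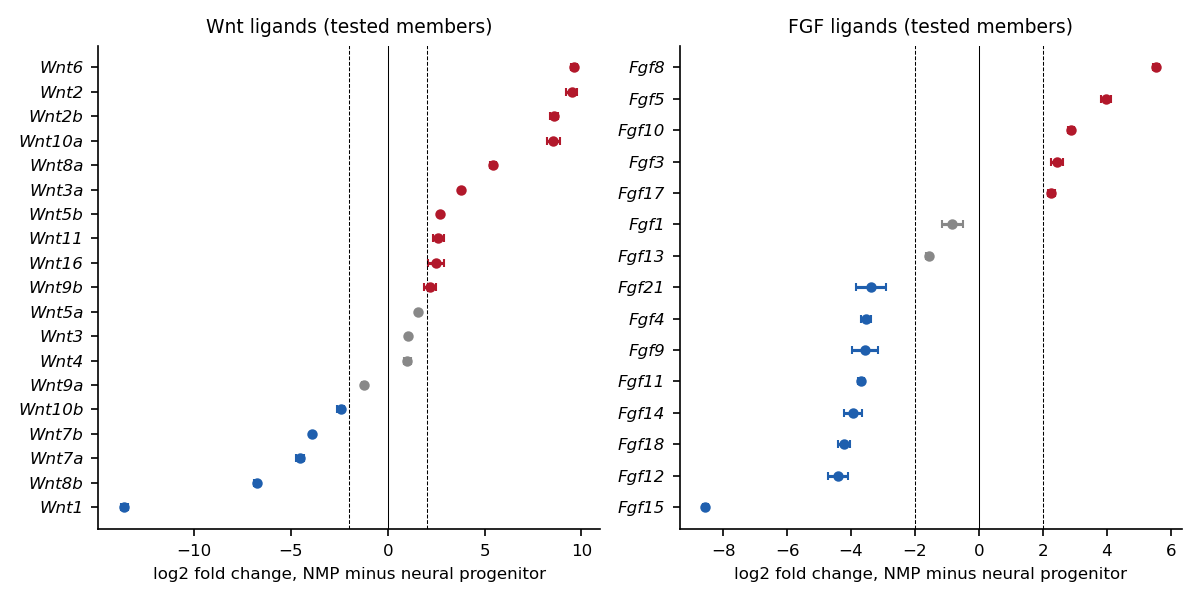
Fitted log2 fold change, NMP minus neural progenitor, of the tested Wnt ligands (left) and FGF ligands (right), with the SE as the bar, which is shorter than the point for some genes. Dashed lines mark 4-fold; 10 Wnt ligands lie to the right and 5 to the left, and 5 FGF ligands lie to the right and 8 to the left; the value of Wnt1, with no count in NMPs, is a fitted value and no measured fold.

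FGF ligands lay on both sides as well, 5 of 15 higher and 8 lower (median -3.36). Fgf8, the caudal ligand that keeps progenitors undifferentiated, stood at 67.6, 72.7 and 72.3 CPM in NMPs and 1.64, 1.58 and 1.34 CPM in neural progenitors (5.54 ± 0.099 SE). Fgf17 averaged 18.8 ± 1.66 and 3.89 ± 0.236 CPM, and Fgf5, of the epiblast, 18.9 ± 1.46 and 1.19 ± 0.209 CPM. Fgf15, the ligand of the developing brain, stood at 0.975, 0.771 and 0.634 CPM in NMPs and 285, 298 and 314 CPM in neural progenitors (-8.56 ± 0.08 SE). Feedback genes of the pathway were mostly below 4-fold, with 1 of 12 lower (Spry1, 16.9 ± 0.863 and 383 ± 13.4 CPM) and none higher. Dusp6, a phosphatase that dampens ERK, averaged 419.5 ± 7.07 and 318 ± 26 CPM, and Etv4, a target factor, 170.3 ± 1.25 and 181 ± 10.03 CPM. Spry4, another feedback inhibitor, averaged 267 ± 3.45 and 92.95 ± 5.53 CPM, below 4-fold.

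In the retinoid pathway 4 of 14 genes were higher and 2 lower. Cyp26a1, which degrades retinoic acid in the tail bud, stood at 119, 119.5 and 116 CPM in NMPs and 0.714, 1.08 and 0.141 CPM in neural progenitors. Its paralog Cyp26b1 showed the opposite, at 0.975, 1.08 and 0.288 CPM in NMPs and 197, 193 and 212 CPM in neural progenitors. Aldh1a2, the enzyme that makes retinoic acid in mesoderm, averaged 39.9 ± 5.82 and 4.65 ± 0.692 CPM. Rarg, a receptor of caudal progenitors, was higher (65.4 ± 1.702 and 15.4 ± 0.949 CPM), and Rarb, a receptor and target of retinoic acid, was lower (0.109 ± 0.0833 and 2.66 ± 0.706 CPM).

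In the Notch pathway 2 of 18 genes were higher (Dll3 and Hes7) and 4 lower (Dll4, Jag1, Mfng and Hes5). That is 11.1% and 22.2%, beside 5.81% and 13.9% of all tested genes. Hes5 stood at 1.37, 0.617 and 0.577 CPM in NMPs and 68.2, 63.7 and 63.7 CPM in neural progenitors (-6.29 ± 0.12 SE), and Hes7 at 37.4, 39.3 and 33.4 and 0.785, 1.29 and 0.564 CPM. The repressors Hes5 and Hes7 thus stood on opposite sides, and Hes1 (0.18) was not called. The receptors Notch1, Notch2 and Notch3 were below 4-fold. GTGGGAA was found in the promoters of 4 of 14 genes of this pathway (Lfng, Hes5, Hes7 and Hey2), which were not called, lower, higher and not called. It was also in 4 of 15 presomitic genes, and in 7.56% of all tested genes with a promoter.

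Among the BMP, Nodal and Id genes 4 of 23 were higher and 7 lower. Fst, a secreted inhibitor of activins, stood at 588, 619 and 638 CPM in NMPs and 6.71, 8.25 and 7.75 CPM in neural progenitors (6.34 ± 0.054 SE). The other 3 higher genes were Nodal, Lefty1 and Lefty2. Id4 and Id2, inhibitors of basic helix-loop-helix factors, averaged 0.629 ± 0.346 and 1.46 ± 0.439 CPM in NMPs and 96.4 ± 5.87 and 50.8 ± 7.25 CPM in neural progenitors. Bmp4 (1.72) and Bmp7 (0.73), ligands of the pathway, were below 4-fold.

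Genes that time trunk formation divided as well. Lin28a, an RNA-binding protein of early embryonic cells, stood at 1047, 1073 and 1046 CPM in NMPs and 41.6, 43.3 and 37.7 CPM in neural progenitors (4.69 ± 0.0397 SE). Nr6a1, an orphan receptor of the trunk phase, stood at 381, 378 and 356 and 16.5, 17.1 and 17.4 CPM. The other way were Gdf11, the signal of the trunk to tail switch (14.6 ± 0.7697 and 68.3 ± 2.35 CPM), and the orphan receptors Nr2f1 and Nr2f2, which averaged 0.527 ± 0.1197 and 0.378 ± 0.07399 CPM in NMPs and 104 ± 2.84 and 112 ± 3.56 CPM in neural progenitors. In all, 2 of 10 genes of this list were higher and 3 lower.

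Pluripotency genes were divided with 7 of 20 higher and 8 lower in NMPs (median -0.49). The 7 higher genes were Pou5f1, Tdgf1, Fgf5, Dnmt3b, Lin28a, Sall4 and Gbx2, of which Fgf5 and Dnmt3b are known for the primed epiblast. The 8 lower genes were Zfp42, Esrrb, Klf2, Klf4, Dppa5a, Prdm14, Fgf4 and Nr0b1, most of which are known for the naive state. Pou5f1, the POU factor of pluripotent and epiblast cells, stood at 370.2, 397 and 380.4 CPM in NMPs and 45.3, 52.4 and 46.2 CPM in neural progenitors. Dppa5a stood at 2.15, 2.26 and 1.96 CPM in NMPs and 42.9, 47.9 and 44.1 CPM in neural progenitors, and Klf2 at 2.47, 2.42 and 2.13 and 25.7, 31.2 and 28.7 CPM. All 15 called genes also separated the 6 NMP from the 12 neural progenitor libraries, beside 89.5% of all called genes. Nanog, a core factor, averaged 11.7 ± 0.597 and 39.7 ± 2.85 CPM and was below 4-fold. The whole list summed to 2895 to 2961 CPM in NMPs and 454.1 to 507.9 CPM in neural progenitors. The part of undifferentiated cells in either group was not tested.

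**Figure D5:**
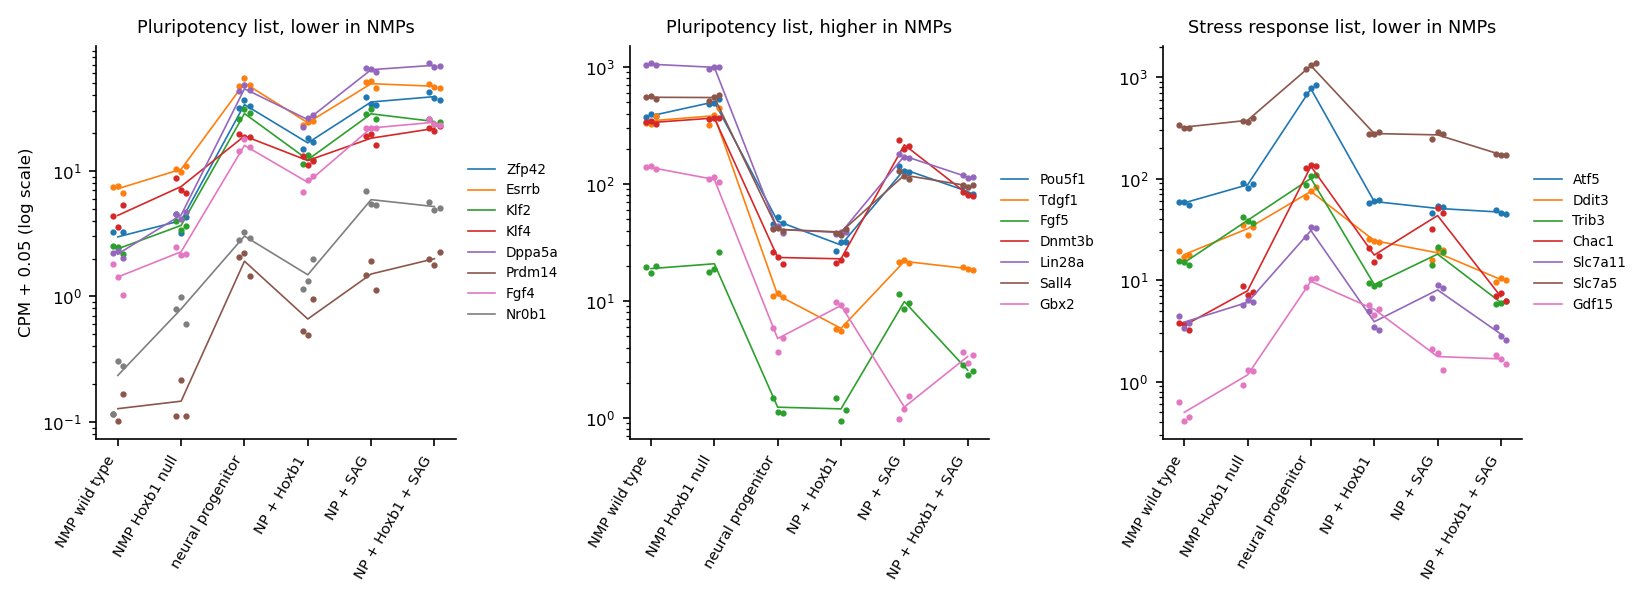
CPM plus 0.05 (log axis) of the called members of 2 lists in all 6 groups, with 1 point per library and lines through the group means: 8 pluripotency genes lower in NMPs (left), 7 higher (middle) and 7 stress response genes lower (right). Pluripotency genes keep their side in all neural progenitor groups, as 89.5% of all called genes do. Stress genes such as Atf5 peak in the untreated neural progenitors (679, 791 and 837 CPM).

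Stress response genes summed highest in the untreated neural progenitors. Of 15 genes of the integrated stress response, the ATF4 programme of amino acid shortage and unfolded proteins, 7 were lower in NMPs and none higher (median -1.87). None of the 7 separated the 6 NMP from the 12 neural progenitor libraries, beside 89.5% of all called genes that did. Atf5, a transcription factor of the response, stood at 59.3, 58.6 and 55.4 CPM in NMPs and 679, 791 and 837 CPM in the untreated neural progenitors, but averaged 59.5 CPM with Hoxb1, 50.9 with SAG and 46.8 with both. Chac1, a glutathione-degrading target, averaged 3.53 ± 0.316 and 132 ± 5.36 CPM, and 17.6, 43.3 and 6.84 CPM in those 3 groups. The list summed to 2782 to 2870 CPM in NMPs, to 5569 to 6166 CPM in untreated neural progenitors, and to 1576 to 2305 CPM over the other 9 neural progenitor libraries.

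Among 22 cadherin and epithelial state genes 9 were higher in NMPs and 5 lower (median 0.94), and the higher ones included Snai1 and Fn1, which are known for mesenchyme and matrix. Krt8 and Krt18, keratins of simple epithelia, averaged 335 ± 9.53 and 256 ± 11.8 CPM in NMPs and 8.97 ± 0.394 and 15.2 ± 0.609 CPM in neural progenitors. Cldn4, a tight junction protein, stood at 444, 410.1 and 441 and 21.3, 23.02 and 21.99 CPM, and Cdh1, which encodes E-cadherin, at 418, 408 and 417 and 68.6, 72.5 and 65.8 CPM. Fn1, the matrix protein fibronectin, stood at 4509, 4589 and 4638 CPM in NMPs and 313, 359 and 339 CPM in neural progenitors, and Snai1, which represses Cdh1, was also higher. The lower genes included the neural cadherins Cdh6 and Cdh8, at 1.09 ± 0.388 and 0.0772 ± 0.0337 CPM in NMPs and 72.4 ± 4.403 and 24.1 ± 0.922 CPM in neural progenitors. Of 7 tested surface ectoderm genes 5 were higher and 2 lower (Tfap2a at -2.89, and Dlx5 with 1 count in NMPs, a ratio of 389 with an interval of 69.3 to 15400), and the defining members Krt5, Krt14 and Trp63 had too few counts to be tested.

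Genes of mesenchyme were mostly on the side of the neural progenitors. Of 14 genes 6 were lower and 2 higher. Col3a1, a fibrillar collagen, stood at 4.36, 4.73 and 3.75 CPM in NMPs and 183, 199 and 198 CPM in untreated neural progenitors, and averaged 1271 CPM in those with SAG. Lum, a matrix proteoglycan, had 1 count in NMPs and averaged 6.15 ± 1.02 CPM in neural progenitors. Pdgfra, a receptor of early mesoderm, was higher (169 ± 3.93 and 13.2 ± 2.06 CPM), as was Tagln, an actin-binding protein. The list summed to 564.7 to 582.1 CPM in NMPs and 750.9 to 785.9 CPM in neural progenitors. The part of endoderm, crest and mesenchyme cells in the other results was not tested. Of 8 endothelial and blood genes, Etv2 was higher and Pecam1 and Tal1 lower, and Hbb-y, Hba-a1 and Ptprc were among those with too few counts to be tested. Of 6 tested muscle genes, Des was higher and Mef2c lower, and Myod1, Myf5 and Tnnt2 had too few counts to be tested. Each direction held 16.7% of these 6 genes, beside 5.81% higher and 13.9% lower of all tested genes.

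The largest rises outside these lists, by the naming rule, were Sprr2a3, Tmem114 and Btla. Sprr2a3, a cornified envelope gene of a multigene family whose reads may be shared among copies, stood at 53.95, 59.4 and 63.6 CPM in NMPs with no count in neural progenitors, at least 831-fold higher. Tmem114, which encodes a transmembrane protein, averaged 36.9 ± 1.28 CPM with 1 count in neural progenitors, a ratio of 1560 (280 to 61600). Btla, an inhibitory receptor best known from lymphocytes, stood at 28.9, 29.1 and 28.8 CPM with 2 counts in neural progenitors, a ratio of 610 (169 to 5040). The largest falls outside the lists were Sox1ot, Luzp2, Dlx6os1, Slc17a6 and Six3os1. Sox1ot, Dlx6os1 and Six3os1 are transcripts beside or antisense to Sox1, Dlx6 and Six3, and since the strand setting of the counting is not given, reads of the partners may be shared. Six3os1 stood at 0.065, 0.103 and 0.115 CPM in NMPs and 175, 171 and 183 CPM in neural progenitors. Slc17a6, the vesicular glutamate transporter of excitatory neurons, had 1 count in NMPs and stood at 47.3, 49.6 and 45.8 CPM in untreated neural progenitors, a ratio of 2480 (445 to 98100). Luzp2 had no count in NMPs and stood at 33.2, 33.2 and 33.8 CPM in untreated neural progenitors, at least 581-fold lower in NMPs. In neural progenitors with SAG, Slc17a6 stood at 1.605, 2.133 and 1.695 CPM and Luzp2 averaged 0.278 CPM. The high level of both was thus not shared by all neural progenitor groups.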

How the data were processed

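RNA of 18 libraries was deposited as raw counts per Ensembl gene, which the authors made with bcl2fastq 1.8.2 and featureCounts 1.4.6 on mm10, per the submitters' processing notes. Per the labels, polyadenylated RNA went into strand-specific libraries with 15 PCR cycles. The sources used here name no aligner, annotation release, strand setting or rule for reads with several matches. A length column of the deposited table (other values, bases of exon per gene) served only for CPM per kilobase.

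Of 37224 genes, 35449 had a symbol in GENCODE vM21 or the gene name table. The 6 libraries were fitted in R 4.3.3 with edgeR 4.0.16 (filterByExpr by group, TMM factors from all 18 libraries, robust quasi-likelihood F-test, 4 residual degrees of freedom, common biological coefficient of variation 2.66%), with Benjamini-Hochberg adjustment over 15592 genes. Levels are CPM of effective library size, mean ± SD of 3 libraries, and SE is the log2 change divided by the square root of F. A fold against no count uses a floor of 3 counts over the group. Ratios with 1 to 3 counts have 95% Clopper-Pearson intervals.

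The members and the 47 gene lists were chosen with earlier results of these data known. Named were a list of marker genes, the 10 largest rises and falls with at least 20 CPM and no overlap, and up to 4 called members per list and direction with at least 2 CPM, all of them where 5 or fewer are counted. Other list members (such as Fabp7, Cdh1, Fn1, Cdh2, Smo, Hes1, Ddx3y and members named as below 4-fold) were chosen after their values were seen. Some listed genes are not reported here. DESeq2 1.42.0, scaling, filter, fold, replicate block and leave-one-out alternatives were run. Same-numbered libraries did not deviate together (correlations -0.0157, -0.0133 and 0.00129).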

Additional observations from a re-analysis of the deposited data

How the results depend on the processing

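The counts of 906 genes higher and 2167 lower in NMPs followed mainly the fold asked for. At 2-fold they were 2723 and 3875, and at 8-fold 439 and 1287. Without a filter on low counts 23607 genes were tested and 1439 were higher, all 906 among them. The other settings moved neither of these 2 counts by over 1.5 times. Of 1692 counts of list members higher or lower under an alternative, 73 moved by more than that, 54 of them under the 2-fold or 8-fold condition, 4 without 1 library and 15 under other settings, mostly no filter or a fit on all 18 libraries. DESeq2 gave 918 and 2166, of which 906 and 2163 were among the genes called by edgeR. Without composition scaling the counts were 811 and 2346, the median of all genes shifted by -0.141, and the share of higher among called genes was 25.7% instead of 29.5%. With the replicate number as a block, which pairs libraries that share only a number, they were 904 and 2163. Leaving out each library in turn gave 899 to 928 higher and 2160 to 2184 lower. Without the genes of chromosomes 8 and 11, a setting chosen after seeing the data, 807 and 1850 remained.

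Of 227 named genes 219 kept direction and side of the test in all 16 settings. Nes turned to -0.014 without composition scaling (adjusted p = 0.718 in edgeR), and the difference was not larger than the scaling shift. Etv4 (-0.09) missed the test in DESeq2 and in some fits without a library. Against a 2-fold threshold Hoxa9, Foxa2, Sox17, Dusp6, Meg3 and Eif2s3y missed it too; none of the 8 was called at 4-fold. Depth limits genes near 0 counts, where only bounds or wide intervals are given.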

Other observations

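Imprinted genes, which are expressed from 1 parental copy, were often lower in NMPs, 10 of 19 tested genes being called lower and 1 higher, beside 13.9% and 5.81% of all tested genes. Ndn, Plagl1 and Nnat averaged 13.8 ± 0.724, 15.6 ± 0.363 and 52.4 ± 0.364 CPM in NMPs and 219.9 ± 3.05, 234 ± 2.73 and 770.1 ± 38.4 CPM in neural progenitors. For each, all 12 neural progenitor libraries stood above all 6 NMP libraries, and 89.5% of all called genes separated these libraries. The higher gene was Phlda2, a growth regulator of the placenta, at 148, 154 and 135 CPM in NMPs and 3.71, 3.44 and 2.04 CPM in neural progenitors. Meg3, a non-coding RNA of the Dlk1 locus, was below 4-fold at 467 ± 9.23 and 904 ± 71.9 CPM, but averaged 36.02 CPM in the Hoxb1-null NMPs.

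Ephrin signalling genes lay on both sides, 3 of 19 higher and 6 lower. Epha1 and its ligand gene Efna1 stood at 309, 312 and 309 and 54.9, 60.5 and 57.6 CPM in NMPs and at 6.07, 6.81 and 5.22 and 3.36, 2.51 and 2.68 CPM in neural progenitors. Epha3 and Efnb2 averaged 0.6798 ± 0.225 and 30.1 ± 0.891 CPM in NMPs and 49.6 ± 4.27 and 275 ± 5.41 CPM in neural progenitors.

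Of 16 genes of hypoxia and glycolysis 3 were higher (Eno1, Pkm and Ldha) and 2 lower (Vegfa and Pfkp). Pkm, a pyruvate kinase, averaged 4341 ± 171 and 981 ± 19.9 CPM, and Vegfa, an angiogenic ligand, 58.2 ± 1.24 and 465 ± 33.3 CPM. Glycolysis genes such as Eno1 and Ldha have processed copies in the genome, and their levels are uncertain where reads are shared: Gapdh, usually among the most abundant transcripts, was counted at only 25.6 and 8.95 CPM. Of 19 cell cycle genes 2 were higher (Pcna, 212 ± 8.702 and 48.1 ± 2.24 CPM, and Ccne1, 141 ± 1.83 and 21.4 ± 2.49 CPM) and none lower, and Mki67 (-0.53) and Top2a (-0.43) were not called. Cdkn2c, an inhibitor of cell cycle kinases, averaged 1.02 ± 0.349 and 19.2 ± 1.21 CPM, and with Gadd45g it made up the 2 lower of 11 inhibitor genes, none being higher, or 1 without neural progenitor replicate 3. Of 14 p53 targets, Pmaip1 (149 ± 5.94 and 7.4 ± 0.7104 CPM) and Perp (82.2 ± 4.65 and 14.5 ± 1.55 CPM) were higher, and Cdkn1a (0.05) was not called. Of 13 immediate early genes, Fosl1 averaged 6.89 ± 0.718 CPM with 3 counts in neural progenitors, and Fosb was lower at 3.25, 2.52 and 4.67 against 33.6, 24.5 and 20.1 CPM. The shares called higher and lower were 18.8% and 12.5% for hypoxia and glycolysis and 10.5% and 0% for the cell cycle. They were 0% and 18.2% for its inhibitors, 14.3% and 0% for p53 targets, and 7.69% each for immediate early genes. Over all tested genes they were 5.81% and 13.9%.

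Of 8 tested trophoblast and visceral endoderm genes 3 were higher (Cdx2, Hand1 and Krt7) and 1 lower (Gata3). None of the 7 tested mitochondrially encoded genes was called, although 6 of them passed edgeR's adjusted p alone, beside 88.5% of all tested genes. Members with too few counts to be tested included mt-Co2, mt-Co3 and mt-Atp6. These averaged 0.404, 0.196 and 0.24 CPM in NMPs and 0.45, 0.189 and 0.261 CPM in neural progenitors, whereas mt-Co1 averaged 3133 and 4334 CPM. The rule for reads with several matches is not given, so these low counts are uncertain as levels of expression. Their cause was not tested.

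Of the 5 tested sex chromosome genes none passed the 4-fold condition (1 was lower without NMP replicate 3). By edgeR's adjusted p alone 4 of them passed, beside 88.5% of all tested genes. Ddx3y averaged 29.97 ± 0.767 and 30.5 ± 0.734 CPM, and Eif2s3y averaged 23.5 ± 0.848 and 44.8 ± 2.13 CPM, but 14.4 CPM in the neural progenitors with Hoxb1 and SAG and 57.04 CPM in the Hoxb1-null NMPs. Xist, the X inactivation transcript, was at 0.415 and 0.142 CPM.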
